A study of Mus musculus with 32 samples.

Results

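The livers described here came from mice fed a methionine and choline deficient (MCD) diet and given the drug named Fc-GLP-1, and they were compared before partial hepatectomy (PH) and 2 weeks after it. The group, named M+Fc-GLP-1, gave 8 of the 32 liver RNA samples of the study, 4 before PH and 4 post-PH, chosen by the diet, drug and time in their sample labels. The whole study set 2 diets, with and without the drug, at both times, with 4 livers in each of 8 groups, and measured RNA on 1-colour 60-mer oligonucleotide arrays. All mice were males of the C57/BL6 strain, 8 weeks old when the diets began, by the study's methods. M+Fc-GLP-1 mice had eaten the MCD diet for 3 weeks and had been given Fc-GLP-1 during the last 2 of them when 70% of the liver was removed, and both diet and drug went on afterwards. C+Fc-GLP-1 mice had drug treatment and surgery on standard chow, and MCD mice had the same diet and surgery without the drug.

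The labels do not name the drug in one way. The source names of the treated groups give Fc-GLP-1, while their descriptions and the protocol text give a dual agonist, of GLP1R/GCGR where its receptors are named. The study describes a GLP-1 receptor agonist, and its name Fc-GLP-1 is kept here. For C+Fc-GLP-1 livers post-PH the source names give Fc-GLP-1 before surgery and a dual agonist after it, whereas those of M+Fc-GLP-1 livers post-PH say that the treatment was continued. The protocol text states 1 treatment throughout, so the labels do not settle whether the drug post-PH was the same on both diets, and every difference between the diets given here carries that limit. The study describes 4 independent livers in each group and describes tissue before PH as the part removed at surgery. The labels do not tie a liver before PH to one post-PH, so all comparisons were unpaired, and livers could be sampled post-PH only from mice alive at that time.

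The MCD diet withholds methionine and choline, which hepatocytes need for phosphatidylcholine synthesis and for the export of triglyceride in very low density lipoprotein, and it produces steatosis, inflammation and fibrosis in mice. After partial hepatectomy the remaining lobes grow back by hypertrophy and by division of hepatocytes, with immediate early genes such as Jun and Fos induced first and mitotic genes later. Agonists of the GLP-1 receptor act on pancreatic beta cells, the gut and the brain, and hepatocytes are generally described as expressing little or none of the receptor, in contrast to the glucagon receptor.

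All values are log2 signals minus the 75th percentile of the same array, so that 0 marks that percentile and a difference of 1 is a doubling. Between 36.2% and 51.4% of probes were well above background on the arrays before PH and between 46.6% and 55.2% on those post-PH, with replicate 2 before PH lowest, and no probe was saturated. The 4 M+Fc-GLP-1 arrays before PH shared a slide with the C+Fc-GLP-1 arrays before PH, and the 4 post-PH shared another slide with the C+Fc-GLP-1 arrays post-PH. Slide and time cannot be told apart for any difference between the times, whereas a difference between the diets in that change cancels a slide offset common to both diets. Arrays of untreated MCD mice lay on 2 further slides, and those post-PH had been scanned on another scanner.

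Of 21073 genes tested, 174 rose and 169 fell at an adjusted p under 0.05 (limma with Benjamini-Hochberg adjustment), which is 1.63% of the genes, 0.826% upward and 0.802% downward. With each array centred on its median instead, 175 rose and 72 fell, and the median over all genes was 0.10 in place of -0.01. The values of the 4 livers before PH and the 4 post-PH did not overlap for 305 of the 343 genes, against 3.91% of all genes tested that were higher without overlap and 5.07% that were lower. These genes were called from the same values, so their separation lends the calls no separate support. The count came to 155 without replicate 2 post-PH and to 174 without replicate 3 before PH. Of 53 lists of genes covering liver cell types and pathways, 31 held no gene past the threshold. A list median near 0 has no firm direction here, since 16 of the 53 medians changed sign and 49 changed sign or moved by over 1.5 times under at least 1 other setting. Of all genes, 49.0% had a change above 0.

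Genes of fetal liver and of the liver surface gave some of the largest rises. H19, an imprinted long non-coding RNA of fetal liver, measured -1.70, -3.53, -2.90 and -2.25 in the 4 livers before PH. Post-PH it measured 3.51, 2.69, 3.11 and 3.97. The 2 groups lay far apart, and the rise was 60.3-fold (log2 5.91, SE 0.97, adjusted p 0.000897 by limma). Gpc3, a cell surface proteoglycan of fetal hepatocytes, was not well above background in any liver before PH and was so in all 4 post-PH, a rise of at least 5.12-fold (adjusted p 0.00187). In all, 2 of 7 tested fetal liver genes rose and none fell, with a list median of 0.85 against -0.01 over all genes. That median was 0.07 without replicate 4 post-PH. Afp, the fetal counterpart of albumin, measured 0.56, 1.54, 1.04 and 1.36 before PH and 1.95, 2.92, 2.37 and 1.75 post-PH. Its groups did not overlap, yet it missed the threshold (log2 1.12, SE 0.34, adjusted p 0.0835 by limma).

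Mesothelial cells cover the liver capsule, and 3 of 7 tested mesothelial markers rose, with a median of 2.45. Msln, the mesothelial surface protein mesothelin, measured -4.95, -4.11, -4.47 and -3.27 before PH. Post-PH it measured 1.55, -0.34, 1.20 and 2.24. It was not well above background in any liver before PH and was so in all 4 post-PH, a rise of at least 23.9-fold (adjusted p 0.000737 by limma). Pdpn, the mucin-like glycoprotein podoplanin, rose by log2 3.26 (SE 0.75, adjusted p 0.0193 by limma), from -5.09, -4.10, -4.85 and -3.36 to -1.61, -2.58, -1.56 and 1.40. Its call was lost under 6 of 18 other settings, among them the fit without replicate 4 post-PH. Another of these was normexp with quantile normalization (log2 1.56), named normexp from here on, which changed background correction and normalization together. Igfbp6, which binds IGF-II, rose by log2 2.91 (SE 0.77, adjusted p 0.0475 by limma) with no overlap, and this call was lost under 11 of 18 other settings. The summed signal of the list, in multiples of the 75th percentile, ran from 0.739 to 0.851 before PH and from 2.56 to 9.54 post-PH. Wt1, a transcription factor of the mesothelium, did not follow the list (log2 -0.96, SE 0.75, adjusted p 0.558). Upk3b, Upk1b, Lrrn4 and Bnc1 were too dim to be tested. The 3 markers that rose had no value when only genes well above background on every M+Fc-GLP-1 array were used. The list median of 2.45 was the value of Rspo1, a marker not well above background in any liver before PH. This median is therefore no measured size. In whole liver, more cells of a type and more RNA per cell cannot be told apart.

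**Figure D1:**
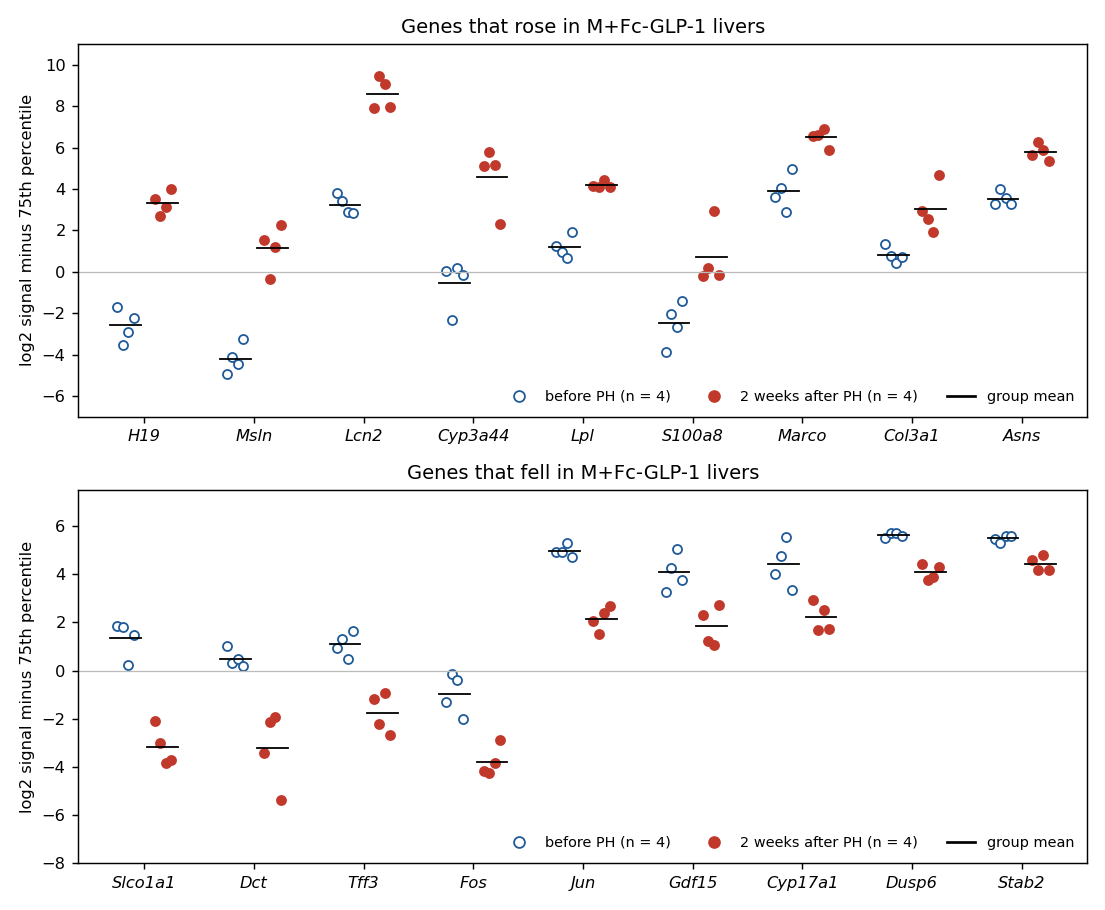
Signal of 18 genes past the threshold in the 8 M+Fc-GLP-1 livers, as log2 signal minus the 75th percentile of the array. Open circles are livers before PH, filled circles are livers 2 weeks post-PH and lines are group means; H19 moved from between -3.53 and -1.70 to between 2.69 and 3.97, and Jun from between 4.71 and 5.30 to between 1.51 and 2.69.

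Among genes of innate immunity, Lcn2, the iron-siderophore binding protein lipocalin 2 made by neutrophils and by stressed hepatocytes, measured 3.82, 3.41, 2.89 and 2.85 before PH. Post-PH the values were 7.92, 9.46, 9.07 and 7.94. This was a rise of 40.9-fold (log2 5.35, SE 0.87, adjusted p 0.000801 by limma). S100a8 and S100a9 encode the subunits of calprotectin, a calcium-binding protein abundant in neutrophils. S100a8 measured -3.86, -2.05, -2.65 and -1.40 before PH and -0.20, 0.19, 2.96 and -0.18 post-PH, with replicate 3 post-PH far above the others. It rose by log2 3.18 (SE 0.68, adjusted p 0.0104 by limma), and S100a9 by log2 2.53 (SE 0.61, adjusted p 0.0293 by limma). The call of S100a8 was lost under 4 of 18 other settings and that of S100a9 under 7 of 19, both also without replicate 3 post-PH, with adjusted p reaching 0.0946 and 0.106.

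Of 15 tested neutrophil genes, 3 rose and none fell, with a median of 1.64, and these 3 were Lcn2, S100a8 and S100a9. The median was 0.61 without replicate 3 post-PH, and -0.16 when only genes well above background on all 8 arrays were used. The granule genes Camp (log2 1.62, SE 0.90, adjusted p 0.386) and Ngp (log2 1.66, SE 0.98, adjusted p 0.417) did not pass, and in Camp replicate 3 measured 2.31 while the other 3 livers post-PH lay between -2.01 and -1.46. Ly6g, the neutrophil surface marker, had a log2 change of -0.33 (SE 0.28, adjusted p 0.607). The summed signal of the list ran from 140.6 to 170.3 before PH and from 332.3 to 805.2 post-PH, in multiples of the 75th percentile, and Lcn2 alone gave between 243 and 702 of it post-PH. Without Lcn2 the sum of the other 14 genes ran from 130 to 163 before PH and from 87.5 to 154 post-PH, and the groups overlapped. Acute phase proteins, secreted by hepatocytes in inflammation, had a median of 0.69, with 19 of 22 above 0 and 3 past the threshold. These were Lcn2 and the orosomucoids Orm1 (log2 1.84, SE 0.36, adjusted p 0.00497 by limma) and Orm2 (log2 1.82, SE 0.38, adjusted p 0.0102 by limma). Orm1 ran from 5.41 to 6.10 before PH and from 6.51 to 8.52 post-PH without overlap, whereas the 2 groups overlapped for Orm2, whose call was lost under 4 of 19 other settings. Saa1, an apolipoprotein of the acute phase, varied too widely to pass (log2 1.67, SE 0.63, adjusted p 0.177).

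Few macrophage markers passed the test one by one. All 12 tested Kupffer cell markers had a change above 0, with a median of 0.91, and 6 of them did not overlap between the groups, against 3.91% of all genes higher without overlap. Of these 12, 2 rose and none fell. Marco, a scavenger receptor, measured 3.63, 4.03, 2.87 and 4.98 before PH and 6.57, 6.60, 6.91 and 5.87 post-PH. It was higher in every liver post-PH (log2 2.61, SE 0.55, adjusted p 0.0102 by limma), a call lost with the replicate block and without replicate 3 before PH. Folr2, the folate receptor of resident macrophages, rose by log2 1.76 (SE 0.44, adjusted p 0.0339 by limma), a call lost under 9 of 19 other settings. Csf1r (0.97), Cd5l (1.19) and C1qb (1.21) did not overlap between the groups and missed the threshold, with adjusted p between 0.134 and 0.218 by limma. Clec4f, the lectin that defines Kupffer cells, measured 2.78, 3.80, 2.59 and 3.95 before PH and 3.97, 3.87, 4.53 and 4.06 post-PH (log2 0.83, SE 0.36, adjusted p 0.234). The summed signal of the list ran from 65.3 to 156.7 before PH and from 245.7 to 332.2 post-PH.

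Of 14 tested markers of recruited and lipid-associated macrophages, 2 rose and none fell, with a median of 0.78. Replicate 4 post-PH stood apart at a median deviation of 1.40, against 0.05, -0.05 and 0.05 in the other 3, and the list median was 0.31 without it. Lpl, lipoprotein lipase, measured 1.25, 0.96, 0.64 and 1.90 before PH and 4.16, 4.10, 4.41 and 4.11 post-PH. The 4 values post-PH lay close together and well above the earlier ones, a rise of 8.04-fold (log2 3.01, SE 0.38, adjusted p 4.45e-05 by limma). Cd63, a lysosomal tetraspanin, rose by log2 2.15 (SE 0.50, adjusted p 0.0221 by limma), a call lost under 5 of 19 other settings. Trem2 and Gpnmb, which define lipid-associated macrophages, had log2 changes of -0.20 (SE 0.76, adjusted p 0.931) and 0.46 (SE 1.09, adjusted p 0.881), and for both genes replicate 4 post-PH was the highest of the 8 livers.

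Lymphocyte genes gave no call in this comparison. None of 17 tested T and NK cell genes passed, and their median was -0.16, or 0.02 without replicate 4 post-PH. Gzmb, the granzyme of cytotoxic lymphocytes, was not well above background in any liver before PH and was so in 2 post-PH. Ifng was not well above background at either time. Prf1, which encodes perforin, measured -1.40, -1.24, -0.73 and -1.35 before PH and -0.64, -0.67, -1.02 and -1.12 post-PH (log2 0.32, SE 0.27, adjusted p 0.609). Cd3g, a chain of the T cell receptor complex, measured lower in every liver post-PH than before (log2 -0.67, SE 0.38, adjusted p 0.389). Cd8a, Ncr1, Klrk1 and Eomes were too dim to be tested. None of 9 tested B and plasma cell genes passed either, with a median of 0.21, or 0.03 without replicate 3 post-PH.

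**Figure D2:**
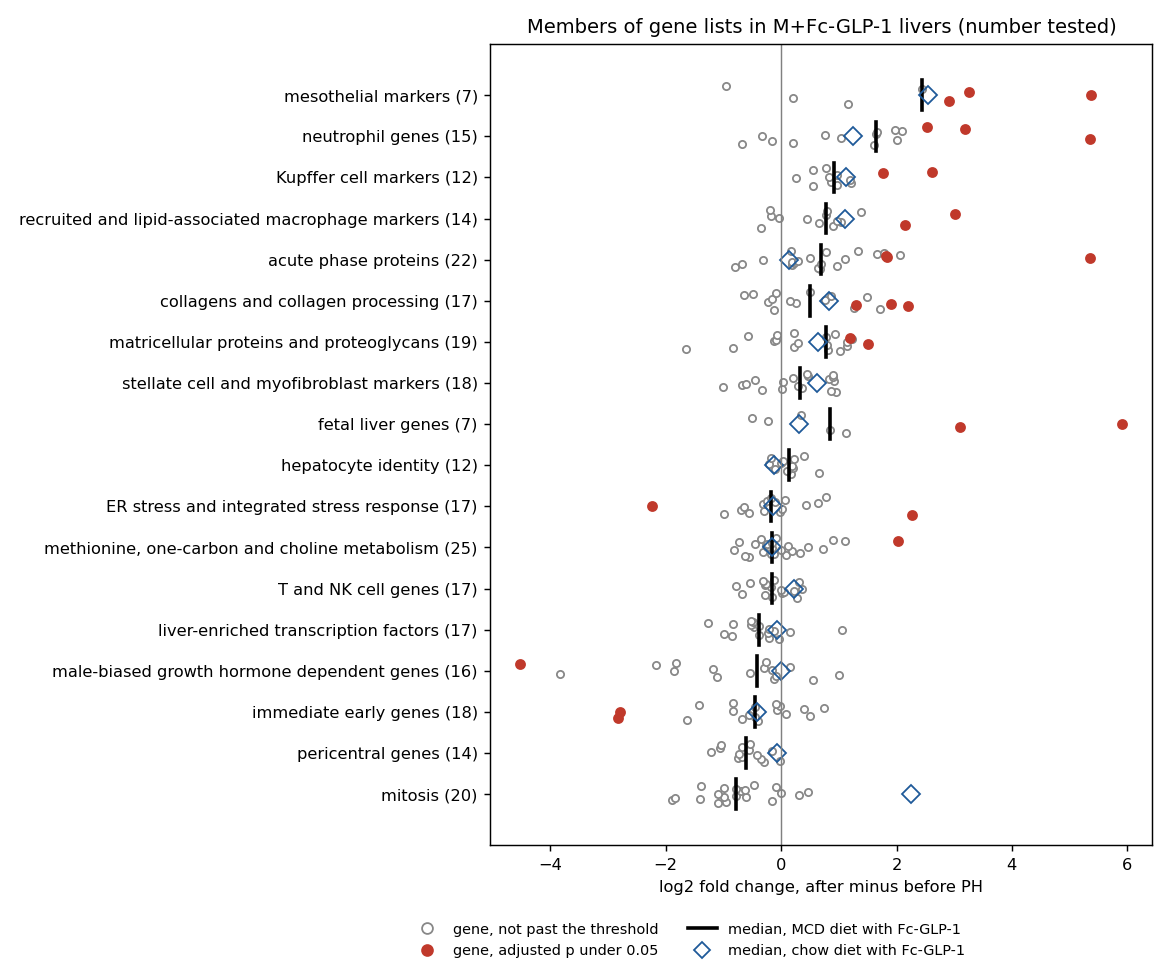
Log2 fold change, post-PH minus before PH, of every tested member of 18 gene lists in M+Fc-GLP-1 livers, with the number tested in brackets. Filled points passed the threshold, bars are list medians and diamonds are the medians of the same genes in C+Fc-GLP-1 livers. The medians of mesothelial markers were 2.45 with MCD, set by a gene not well above background before PH, and 2.55 with chow. Those of mitosis genes were -0.79 with MCD and 2.25 with chow.

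Genes of the extracellular matrix rose in part. Of 17 tested collagens and collagen-processing genes, 3 rose and none fell, with a median of 0.50. Replicate 4 post-PH stood apart, with a median deviation over these genes of 1.02, against 0.01, 0.10 and -0.09 in the other 3 livers post-PH, and without it the list median was 0.24. Col3a1, a fibrillar collagen, measured 1.35, 0.75, 0.43 and 0.70 before PH and 2.94, 2.52, 1.92 and 4.67 post-PH. Every liver post-PH was above every liver before PH (log2 2.21, SE 0.46, adjusted p 0.00958 by limma), and without replicate 4 the rise was log2 1.65 (adjusted p 0.0485 by limma). Its call was lost under 2 of 19 other settings, normexp and the fit of the 8 arrays alone, with adjusted p up to 0.0971. Col4a1 and Col4a2 encode the chains of basement membrane collagen IV and lie head to head on chromosome 8, with annotated start sites 21 bases apart. Col4a1 rose by log2 1.29 (SE 0.32, adjusted p 0.0318 by limma) and Col4a2 by log2 1.91 (SE 0.35, adjusted p 0.00314 by limma), and the call of Col4a1 was lost under 9 of 19 other settings. Col1a1, the main fibrillar collagen of scar, measured -0.06, 0.10, 0.59 and -1.03 before PH and 1.57, 1.75, -0.01 and 3.12 post-PH. The groups overlapped and the difference missed the threshold (log2 1.71, SE 0.62, adjusted p 0.158). Among 19 tested matricellular proteins and proteoglycans, the elastic fibre protein Fbln2 rose by log2 1.51 (SE 0.29, adjusted p 0.00535 by limma) and periostin, Postn, by log2 1.20 (SE 0.31, adjusted p 0.0406 by limma), the latter lost under 12 of 19 other settings. Over these 19 genes replicate 4 post-PH was again far above the other 3, at 1.05 against 0.24, 0.14 and -0.32, and without it the calls of Col4a1 (adjusted p 0.119 by limma) and Postn (adjusted p 0.124 by limma) were lost. None of 18 tested markers of stellate cells and myofibroblasts passed, and the list median was 0.33, or 0.16 without replicate 4 post-PH. Acta2, the smooth muscle actin of myofibroblasts, had a log2 change of 0.96 (SE 0.54, adjusted p 0.397) and Des, the intermediate filament desmin, of 0.02 (SE 0.26, adjusted p 0.982).

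Stab2, a hyaluronan scavenger receptor of sinusoidal endothelium, fell by 1.06 on the log2 scale (SE 0.23, adjusted p 0.0137 by limma), and was the single call among 21 tested endothelial markers, whose median was -0.27. Its call was lost under 6 of 19 other settings.

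The 12 hepatocyte identity genes had a median of 0.13 and none passed, and Alb, serum albumin, measured between 9.57 and 10.96 before PH and between 10.42 and 10.88 post-PH. The list of 17 liver-enriched transcription factors had a median of -0.38, with 15 of 17 below 0 and none past the threshold, and this median was -0.16 without replicate 1 before PH. Pericentral genes, expressed around the hepatic vein, were below 0 in 14 of 14, with a median of -0.61. Of these 14, 6 were lower without overlap, against 5.07% of all genes, and none passed the threshold. Oat, the pericentral ornithine aminotransferase, measured 6.01, 6.42, 5.94 and 6.17 before PH and 5.27, 5.30, 4.61 and 4.51 post-PH (log2 -1.21, SE 0.39, adjusted p 0.103). Tbx3 (log2 -1.04, SE 0.43, adjusted p 0.22) and Notum (log2 -0.74, SE 0.34, adjusted p 0.268), targets of Wnt signalling in these cells, did not overlap between the groups either. The 13 tested periportal genes had a median of 0.02.

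**Figure D3:**
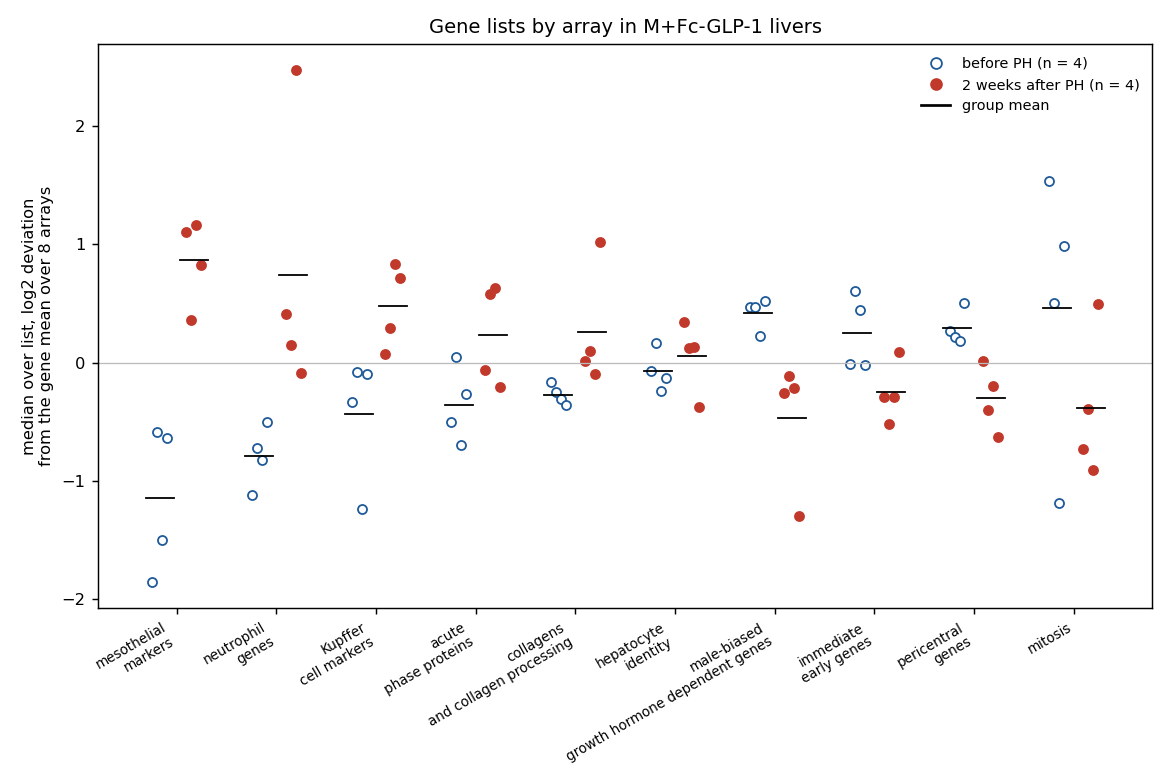
Median over the tested members of 10 gene lists in each of the 8 M+Fc-GLP-1 livers, as the log2 deviation from each gene's mean over these livers. Open circles are livers before PH, filled circles livers post-PH and lines group means; pericentral genes were at 0.29 ± 0.15 (SD, n = 4) before PH and at -0.30 ± 0.27 (SD, n = 4) post-PH, and one liver post-PH stood far above the other 3 for neutrophil genes.

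In male mice, pulses of growth hormone keep a set of liver genes high, and 1 of 16 tested fell past the threshold post-PH. Slco1a1, an organic anion transporter of this set, measured 1.87, 1.81, 0.23 and 1.50 before PH. Post-PH it measured -2.08, -3.02, -3.84 and -3.72. It fell by 4.52 on the log2 scale (SE 1.17, adjusted p 0.042 by limma), a call lost without any 1 of 7 of the 8 livers, with adjusted p up to 0.0987. Of 16 tested male-biased genes, 7 were lower without overlap, against 5.07% of all genes. Slco1a1 was the single call and the median was -0.43, or -0.66 without replicate 2 post-PH. Replicate 4 post-PH stood apart at a median deviation of -1.29, against -0.26, -0.11 and -0.22 in the other 3. Hsd3b5, a male-specific keto-steroid reductase, measured 2.16, 3.49, 2.18 and 2.45 before PH and 0.02, -0.28, -0.90 and -3.89 post-PH (log2 -3.83, SE 1.17, adjusted p 0.0861). The major urinary proteins Mup1 (log2 -1.85, SE 0.79, adjusted p 0.234) and Mup3 (log2 -1.19, SE 0.53, adjusted p 0.258) and the complement regulator Susd4 (log2 -1.83, SE 0.53, adjusted p 0.0738) were also lower without overlap. Of 13 tested female-biased genes, 1 rose and none fell, with a median of -0.42 that became 0.09 with normexp.

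That female-biased gene was Cyp3a44, a steroid-metabolising cytochrome P450 at chr5:145773983-145805891 of GRCm38.p6. It measured 0.03, -2.34, 0.19 and -0.15 before PH. Post-PH it measured 5.10, 5.78, 5.15 and 2.29. The rise of 35.4-fold had the smallest adjusted p among the genes named here for this comparison (log2 5.14, SE 0.58, adjusted p 2.26e-05 by limma). In untreated MCD livers the same probe read 4.97 ± 0.62 (SD, n = 4) before PH and 4.91 ± 0.72 (SD, n = 4) post-PH, and in C+Fc-GLP-1 livers -5.16 ± 0.25 and -3.17 ± 0.93 (SD, n = 4 each). The M+Fc-GLP-1 livers thus stood between chow and MCD levels before PH and, apart from replicate 4 at 2.29, near the MCD level post-PH. The change differed from that of untreated MCD livers by log2 5.20 (interaction term, adjusted p 0.00183 by limma), a contrast in which slide and scanner also differ.

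The Cyp3a genes lie in a cluster on chromosome 5, and the following members were chosen after their values were seen, apart from Cyp3a11, which is in the list of xenobiotic P450s. Of 8 tested Cyp3a genes, 3 rose and none fell, with a median of 0.84. Cyp3a11, the main drug-metabolising member, rose by log2 1.56 (SE 0.33, adjusted p 0.0102 by limma), from between 5.29 and 6.93 to between 7.63 and 8.19, a call lost under 4 of 19 other settings. Cyp3a41b rose by log2 1.73 (SE 0.34, adjusted p 0.00617 by limma), although replicate 4 post-PH, at 3.33, lay below replicate 4 before PH, at 3.42. Cyp3a16 did not pass (log2 1.18, SE 0.50, adjusted p 0.235). Near-identical copies limit this reading. The 250 bases before the annotated starts of Cyp3a44 and Cyp3a41b were identical at 237 positions (94.8%) in RefSeq sequence of GRCm38.p6, against 26% for Cyp3a44 and Cyp3a11. The 60-base probes of Cyp3a44 and Cyp3a41b shared a run of 23 bases, which is shown because it bears on how far both probes can be read apart, in lower case throughout.
Shared run: cactgagctttctcagtgtctgt

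Other genes of steroid and bile acid handling moved in both directions. Cyp17a1, the steroid 17-alpha-hydroxylase, chosen after its values were seen, fell by 2.20 on the log2 scale (SE 0.35, adjusted p 0.000688 by limma), from between 3.36 and 5.55 to between 1.71 and 2.94. Abcc4, an efflux transporter of bile acids, rose by log2 1.96 (SE 0.41, adjusted p 0.0102 by limma), with replicate 3 post-PH at 0.83 below replicate 4 before PH at 0.96 and the call lost under 3 of 19 other settings. Akr1c18 (log2 3.02, SE 0.43, adjusted p 0.000216 by limma), a 20-alpha-hydroxysteroid dehydrogenase, rose as well and was chosen after its values were seen. Hsd3b4, of the keto-steroid reductase branch, was not well above background before PH and rose at least 2.12-fold (adjusted p 0.00535 by limma), also chosen after its values were seen. In untreated MCD livers, where 5.86% of all genes rose, both Akr1c18 (log2 3.35, adjusted p 1.91e-05 by limma) and Hsd3b4 (log2 2.46, adjusted p 0.00187 by limma) rose too.

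Few genes of lipid metabolism passed. Of 21 tested genes of lipogenesis, Lpin1, a phosphatidate phosphatase, fell by 1.34 on the log2 scale (SE 0.36, adjusted p 0.0476 by limma), a call lost under 13 of 19 other settings. None of 28 tested genes of fatty acid oxidation passed, with a median of -0.39 and 22 of 28 below 0, and the median was -0.21 without replicate 4 post-PH. None of 22 tested genes of cholesterol synthesis and uptake passed, with a median of -0.48, or -0.15 without replicate 4 post-PH, which stood at a median deviation of -1.12 against -0.26, 0.38 and 0.22 in the other 3. Otc, a urea cycle enzyme, had a log2 change of -1.47 (SE 0.42, adjusted p 0.067).

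Asns, Phgdh and Aldh18a1 encode enzymes of amino acid synthesis and rose, and they are set side by side only after their values were seen. Asns, asparagine synthetase, measured 3.26, 4.00, 3.54 and 3.29 before PH. Post-PH it measured 5.64, 6.27, 5.88 and 5.36. It rose by log2 2.26 (SE 0.44, adjusted p 0.00497 by limma) and passed under all 19 other settings. Phgdh, the first enzyme of serine synthesis, rose by log2 2.02 (SE 0.54, adjusted p 0.0473 by limma), a call lost under 11 of 19 other settings. It was the single call among 25 tested genes of methionine, one-carbon and choline metabolism, whose median was -0.15. Aldh18a1, the first enzyme of proline synthesis, chosen after its values were seen, rose by log2 2.25 (SE 0.53, adjusted p 0.0235 by limma), a call lost under 7 of 18 other settings, among them normexp (log2 1.02) and the omission of any 1 of 5 livers. Psat1, the next enzyme of serine synthesis, did not overlap between the groups but did not pass (log2 1.11, SE 0.54, adjusted p 0.314). Adm2, a peptide of the adrenomedullin family also known as a target of ATF4, was not well above background in any liver before PH and rose at least 6.63-fold (adjusted p 0.00153 by limma). It was likewise chosen after its values were seen. Atf4 itself (log2 -0.56, SE 0.30, adjusted p 0.367) and Ddit3, the transcription factor CHOP (log2 -0.70, SE 0.38, adjusted p 0.368), did not pass. Gdf15, a stress-induced hormone, went the other way. It measured 3.26, 4.27, 5.07 and 3.75 before PH and 2.33, 1.23, 1.07 and 2.75 post-PH, and fell by 2.24 on the log2 scale (SE 0.51, adjusted p 0.0193 by limma), a call lost under 6 of 19 other settings with adjusted p up to 0.0913. Asns and Gdf15 were the calls among 17 tested genes of ER stress and the integrated stress response, whose median was -0.17.

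The promoter of Asns is shown because it is a known site of amino acid response. The 120 bases before its annotated start, chr6:7693210-7693329 on the minus strand of GRCm38.p6 (RefSeq), held 1 match to TGATGNAA, written in capitals, where N is any base. The match starts 23 bases before the annotated start.
Asns: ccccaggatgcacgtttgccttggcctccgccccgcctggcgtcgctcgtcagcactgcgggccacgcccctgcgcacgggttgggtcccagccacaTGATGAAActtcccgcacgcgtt
These letters, searched on both strands, were found in 1.82% of 32844 promoter windows of the same length. Phgdh, Psat1 and Aldh18a1 had no match in theirs.

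Immediate early genes, which are induced within minutes by growth and stress signals, were lower post-PH in part. Jun, a subunit of AP-1, measured 4.91, 4.91, 5.30 and 4.71 before PH. Post-PH it measured 2.06, 1.51, 2.39 and 2.69. It fell by 2.80 on the log2 scale (SE 0.46, adjusted p 0.000897 by limma) and passed under all 19 other settings. Its partner Fos fell by 2.82 on the log2 scale (SE 0.64, adjusted p 0.0182 by limma), from -1.32, -0.14, -0.38 and -2.02 to -4.17, -4.25, -3.85 and -2.88. It was well above background in all 4 livers before PH and in 2 post-PH, and its call was lost under 4 of 18 other settings, among them normexp (log2 -1.28) and the replicate block. Egr1, a zinc finger factor of the same class, measured 3.96, 4.48, 4.04 and 3.19 before PH and 1.46, 3.11, 1.61 and 2.96 post-PH (log2 -1.63, SE 0.46, adjusted p 0.0619). Nr4a1 did not pass (log2 -1.43, SE 0.70, adjusted p 0.312). Of 18 tested immediate early genes 2 fell and none rose, with a median of -0.45, or -0.13 without replicate 2 post-PH. Dusp6, a phosphatase of ERK that is itself induced by ERK signalling, chosen after its values were seen, measured 5.50, 5.72, 5.74 and 5.61 before PH and 4.45, 3.75, 3.87 and 4.32 post-PH. It fell by 1.55 on the log2 scale (SE 0.21, adjusted p 0.000198 by limma), and it also fell in untreated MCD livers, by 1.60 (adjusted p 3.21e-05 by limma). With normexp the log2 change of Dusp6 in M+Fc-GLP-1 livers was -0.92 and the call was lost (adjusted p 0.13). Of all genes, 1.78% changed differently with and without the drug on the MCD diet, across slides and scanners. The change of Jun differed from that of untreated MCD livers by log2 -2.63 (interaction term, adjusted p 0.0346 by limma), a call lost under 10 of 26 other settings, among them normexp, median centring and the replicate block. In the other groups Jun had a log2 change of -1.48 (adjusted p 0.11) in C+Fc-GLP-1, -0.77 (adjusted p 0.27) in untreated chow and -0.17 (adjusted p 0.86) in untreated MCD livers, and none of these passed by limma.

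Transcripts of the receptors of GLP-1, glucagon and GLP-2 were read next. Glp1r was well above background in 1 of 4 livers before PH and in 3 of 4 post-PH, and measured between -3.39 and -2.89 before PH and between -3.51 and -3.35 post-PH (log2 -0.23, SE 0.51, adjusted p 0.874). Gcgr, the glucagon receptor, measured 8.07, 8.42, 8.35 and 8.34 before PH and 8.33, 7.84, 7.81 and 7.61 post-PH (log2 -0.40, SE 0.28, adjusted p 0.504). Glp2r was well above background in 3 of 4 livers before PH and in none post-PH, a fall of at least 2.33-fold (adjusted p 0.00535 by limma). It was the single call among 9 tested genes for incretin receptors and peptidases, and its adjusted p reached 0.672 under another setting.

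The median change of mitosis genes went in opposite directions on the 2 diets, both with and without the drug. Of 20 tested mitosis genes, 18 were lower post-PH in M+Fc-GLP-1 livers, with a median of -0.79 and none past the threshold. Replicate 3 before PH stood apart at a median deviation of -1.19, against 1.54, 0.50 and 0.99 in the other 3, and the list median was -1.33 without it, -0.50 without replicate 1 before PH and -0.41 with normexp. In C+Fc-GLP-1 livers all 20 were higher, with a median of 2.25, and 7 of them rose against 0.484% of all genes that rose in that comparison. In untreated MCD livers 2 of the 20 fell and none rose, with a median of -1.11, against 3.71% of all genes that fell there. In untreated chow livers 17 of the 20 rose and none fell, with a median of 2.12, against 1322 of all 21073 genes that rose there. Arrays of both untreated groups post-PH were read on another scanner. Ccnb1, the cyclin that drives entry into mitosis, measured 0.14, -1.59, -3.45 and -0.37 in M+Fc-GLP-1 livers before PH. Post-PH it measured -4.55, -2.82, -3.53 and -1.91. The groups overlapped (log2 -1.89, SE 0.73, adjusted p 0.185), with replicate 3 before PH already as low as the livers post-PH. In C+Fc-GLP-1 livers it went from -4.09 ± 1.02 to -0.68 ± 1.16 (SD, n = 4 each). The changes differed between the diets by log2 -5.30 (interaction term, adjusted p 0.0379 by limma). With normexp this difference was -2.56 (adjusted p 0.242 by limma).

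Cdc20, the activator of the anaphase-promoting complex, measured 2.49, 1.49, -1.21 and 1.71 before PH and -0.99, -0.86, -1.83 and 0.80 post-PH. Its change differed from that on chow by log2 -5.06 (adjusted p 0.0433 by limma). Ccnb2, the second B-type cyclin, measured 2.08, 0.70, -0.46 and 1.41 before PH and -0.27, -0.39, -1.63 and 0.37 post-PH, and differed by log2 -3.44 (adjusted p 0.0452 by limma). Post-PH, the M+Fc-GLP-1 means of Cdc20 (-0.72 ± 1.10) and Ccnb2 (-0.48 ± 0.84) were below those of C+Fc-GLP-1 livers, at 1.87 ± 1.37 and 1.26 ± 1.13 (SD, n = 4 each). Before PH the order was the opposite, with Cdc20 at 1.12 ± 1.61 in M+Fc-GLP-1 and -1.35 ± 0.32 in C+Fc-GLP-1 livers (SD, n = 4 each). All 3 calls were lost under many other settings, 16 of 26 for Ccnb1, 17 of 27 for Cdc20 and 18 of 27 for Ccnb2, and the direction held in all of them. The 23 tested genes of DNA replication and G1/S had a median of 0.00, and among them the clamp loader subunit Rfc3 rose by log2 1.41 (SE 0.37, adjusted p 0.0438 by limma) with overlapping groups, a call lost under 9 of 18 other settings.

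**Figure D4:**
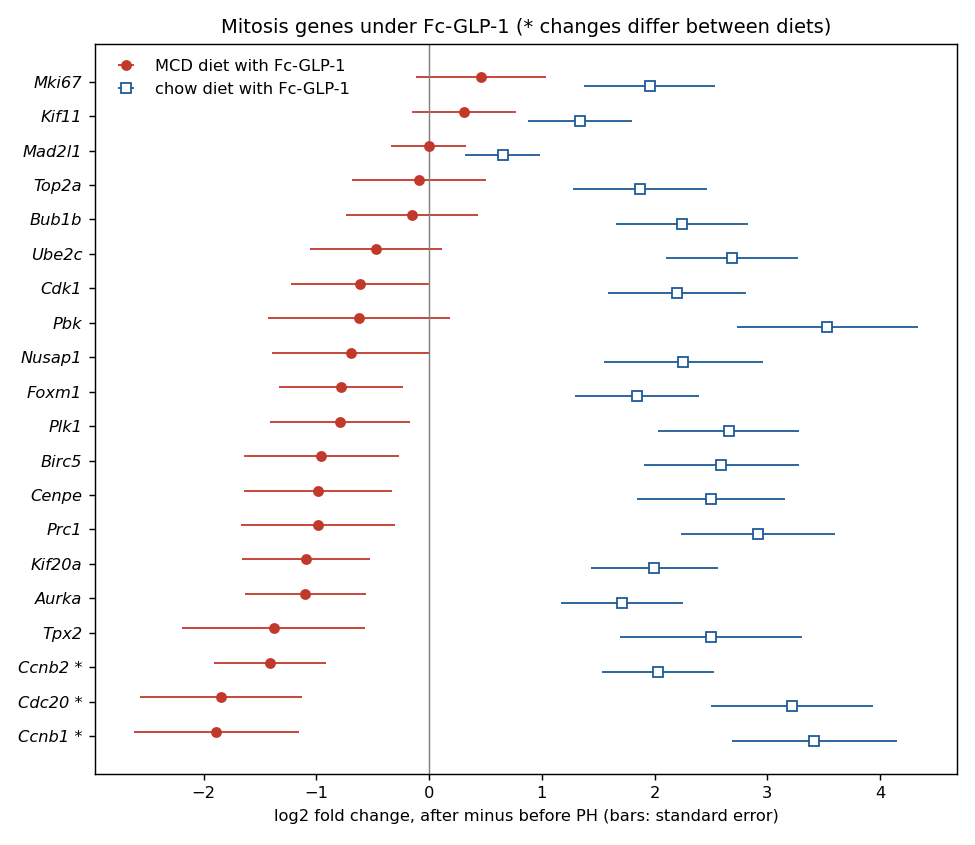
Log2 fold change with its standard error, post-PH minus before PH, of the 20 tested mitosis genes in M+Fc-GLP-1 livers (filled circles) and C+Fc-GLP-1 livers (open squares), 4 livers at each time. Asterisks mark Ccnb1, Cdc20 and Ccnb2, whose changes differed between the diets; every square lies to the right of 0 and 18 circles lie to the left.

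The promoters of these 3 genes are shown because their changes differed between the diets. Each is the 120 bases before the annotated start in RefSeq sequence of GRCm38.p6, with matches to CCAAT and to TTTGAA in capitals, letters that stand for the NF-Y box and for a cell cycle homology region. All 3 lie on the minus strand, at chr13:100786487-100786606 for Ccnb1, chr9:70421555-70421674 for Ccnb2 and chr4:118437344-118437463 for Cdc20.
Ccnb1: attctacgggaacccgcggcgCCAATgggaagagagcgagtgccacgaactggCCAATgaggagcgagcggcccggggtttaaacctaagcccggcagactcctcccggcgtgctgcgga
Ccnb2: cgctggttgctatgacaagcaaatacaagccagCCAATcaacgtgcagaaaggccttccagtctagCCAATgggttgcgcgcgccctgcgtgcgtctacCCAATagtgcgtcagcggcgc
Cdc20: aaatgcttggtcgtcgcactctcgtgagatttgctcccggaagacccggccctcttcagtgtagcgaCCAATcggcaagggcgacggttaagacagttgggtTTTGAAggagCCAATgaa
Ccnb1 and Cdc20 each held 2 CCAAT matches and Ccnb2 held 3. CCAAT, searched on both strands, was found in 12 of 16 mitosis genes with a promoter sequence and in 21.3% of 32844 promoters, and TTTGAA in 7 of 16 and in 7.12%. A match describes these letters and was not tested as a binding site.

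The change post-PH differed between MCD and chow under the drug for 19 genes (0.0902% of those tested), of which 10 had the higher change with MCD and 9 the lower. This split was 10 higher and 2 lower with median centring, and 5 higher and 1 lower with normexp. The count of 19 ran from 5 to 40 when single arrays were left out. Cela1, an elastase first described in pancreas, measured -2.71, -3.16, -4.56 and -2.98 before PH and -0.75, 0.02, -0.69 and 0.22 post-PH in M+Fc-GLP-1 livers. In untreated MCD livers it rose by log2 1.80 (adjusted p 0.00243 by limma). In M+Fc-GLP-1 livers it rose by log2 3.05 (SE 0.37, adjusted p 3.32e-05 by limma), and it had a log2 change of -0.94 in C+Fc-GLP-1 livers. The difference between these 2 groups, log2 3.99 (adjusted p 0.000439 by limma), passed under all 26 other settings that gave it a value. With normexp the difference was 1.90, and the rise in M+Fc-GLP-1 livers was as low as 1.61 under another setting. The other 2 tested acinar genes did not pass, and the summed signal of these 3 genes ran from 0.764 to 2.09 before PH and from 1.22 to 1.93 post-PH. Gbp5, a guanylate-binding GTPase induced by interferon gamma, measured 1.61, 1.41, 1.99 and 1.73 before PH and 5.14, 5.24, 4.11 and 2.54 post-PH. Its change differed from that on chow by log2 2.91 (adjusted p 0.0143 by limma), a call lost under 4 of 27 other settings. With the mean over its kept probes the difference was 1.14 (adjusted p 0.456 by limma) and the rise in M+Fc-GLP-1 livers 1.23 in place of 2.58, and without replicate 2 of C+Fc-GLP-1 post-PH the call of the difference was lost as well. Untreated MCD livers read 4.07 ± 0.34 before PH and 4.87 ± 0.40 post-PH for Gbp5 (SD, n = 4 each), and C+Fc-GLP-1 livers 1.30 ± 0.25 and 0.96 ± 0.37 (SD, n = 4 each). By this probe M+Fc-GLP-1 livers lay near the chow level before PH and, apart from replicate 4 at 2.54, near the MCD level post-PH. The untreated MCD arrays lay on other slides, and those post-PH were read on another scanner. The 20 tested interferon-stimulated genes had no call and a median of 0.31, which was -0.16 without replicate 2 post-PH. That liver stood at a median deviation of 1.39, against -0.36, 0.16 and -0.53 in the other 3.

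Vmn2r5, annotated as a vomeronasal pheromone receptor, followed the same course. It was not well above background before PH and rose at least 8.19-fold (adjusted p 0.000433 by limma). In C+Fc-GLP-1 livers it was not well above background in any liver before PH and was so in 1 post-PH. A fitted difference between the diets is therefore no measured size for Vmn2r5. Untreated MCD livers read -0.01 ± 0.54 before PH and -0.52 ± 0.62 post-PH, against -0.49 ± 1.41 in M+Fc-GLP-1 livers post-PH (SD, n = 4 each). Its neighbours on chromosome 3, Vmn2r3 (log2 2.63, SE 0.34, adjusted p 5.21e-05 by limma) and Vmn2r4 (log2 2.64, SE 0.54, adjusted p 0.00878 by limma), chosen after their values were seen, rose as well. The 60-base probes of Vmn2r3 and Vmn2r4 share a run of 19 bases, and that of Vmn2r5 shares at most 5 with either, so the first pair may not be read apart.

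Other large changes were found in genes outside the lists. Gldn, gliomedin (log2 3.31, SE 0.54, adjusted p 0.000801 by limma), Cpe, carboxypeptidase E (log2 3.25, SE 0.73, adjusted p 0.0162 by limma), Igdcc4 (log2 3.34, SE 0.72, adjusted p 0.012 by limma) and Wfdc3 (log2 3.29, SE 0.81, adjusted p 0.0318 by limma) rose without overlap between the groups, and the call of Wfdc3 was lost without any 1 of 6 livers, that of Cpe without replicate 3 before PH or replicate 4 post-PH, and that of Igdcc4 without replicate 2 post-PH. Igdcc4 was well above background in 1 of 4 livers before PH, and its log2 change was as low as 1.42 under another setting. Nrip2 was not well above background before PH and rose at least 4.46-fold (adjusted p 0.000701 by limma). Among the largest falls, Dct, the melanin enzyme dopachrome tautomerase, measured 1.00, 0.30, 0.49 and 0.18 before PH and -3.43, -2.14, -1.94 and -5.40 post-PH (log2 -3.72, SE 0.54, adjusted p 0.000332 by limma). Tff3, a secreted trefoil peptide, fell by 2.85 on the log2 scale (SE 0.48, adjusted p 0.00138 by limma), and Kcnk10, a potassium channel, fell by 3.11 (SE 0.58, adjusted p 0.00326 by limma). Kcnk10 was well above background in 2 of 4 livers post-PH. Its call was lost when only the 8 arrays were fitted (adjusted p 0.0562 by limma), and its log2 change was -1.36 under another setting. Igfbp5, which binds insulin-like growth factors, was the single call among 17 tested genes of the growth hormone, IGF and STAT5 axis, whose median was -0.08. It rose by log2 2.12 (SE 0.50, adjusted p 0.0235 by limma) and also in untreated MCD livers (log2 2.23, adjusted p 0.00483 by limma), and the call in M+Fc-GLP-1 livers was lost under 8 of 18 other settings. Among 17 tested genes of a list used for PCR, none passed the threshold, and their median was 0.37, which ran from 0.12 to 0.73 under other settings. By PCR the study reported rises of several of these genes in M+Fc-GLP-1 livers post-PH. Missing the threshold on the arrays does not show that they were unchanged.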

How the data were processed

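Total liver RNA was labelled with Cy3 and hybridised to 1-colour Agilent 60-mer arrays, 1 array per liver. Per the file headers, the authors deposited scanner intensity values made with Feature Extraction 10.7.3.1, background corrected and detrended within the array, in linear units. Genes were named through RefSeq tables for 27650 of 55681 probes, and otherwise kept the name in the files. The log2 intensity minus each array's 75th percentile was used, without outlier spots, for probes that reached well above background throughout at least 1 group, with the brightest kept probe per gene. The series' table of normalized log2 values and the authors' own comparisons were not used.

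A linear model with 8 groups was fitted to all 32 arrays (24 residual degrees of freedom) with limma 3.58.1 in R 4.3.3, and p-values were adjusted by Benjamini-Hochberg over 21073 genes, with a threshold of 0.05. The study used limma as well. The number of arrays limits the precision. Where no array of a group measured a probe well above background, a fold is given as a bound, the bright group's mean over the lowest measurable signal of the dim arrays. Tested on simulated data with 200 changed genes, the fit recovered 21% of changes of 1 and 84% of changes of 2 on the log2 scale, with 5 false calls. The simulated noise was independent between arrays and held no slide effect, so these rates do not cover offsets between slides or shifts of single livers.

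The gene lists and the genes described were chosen with earlier results of these data known. Named were the 12 largest rises and falls without overlap, called members of each list (or the 3 with the smallest p), genes the study measured by PCR, the 5 largest interactions in each direction and defining markers of other cell types. Genes outside this rule are marked as chosen after their values were seen, and so were members of lists that are given beside a called member. Alternatives changed the centring, filter, probe choice, arrays in the fit, outlier spots, variance trend, replicate block and each array in turn. The alternative named normexp changed the background correction and, by quantile normalization, the scaling together. Some genes are not reported here.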

Additional observations from a re-analysis of the deposited data

Results flagged for a closer look

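Single livers lay far from the other 3 of their group for 10 of 234 sets of 4 values examined by Dixon's test, and chance gives about 1 in 20. Before PH, replicate 2 was low for Cyp3a44 (-2.34) and Dpp4 (1.74) and high for Gpc3 (-3.13), replicate 1 was low for the unnamed probe A_55_P2072925 (0.40) and high for Mmp2 (-1.36), replicate 3 was low for Lockd (-3.75) and replicate 4 for C730036E19Rik (-2.13). Post-PH, replicate 2 was high for Gzmb (-2.76), replicate 3 for S100a8 (2.96) and replicate 4 for Postn (0.39). Replicate 2 before PH had the lowest share of probes well above background, at 36.2%.

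The change post-PH under Fc-GLP-1 differed between MCD and chow, by the interaction term of limma, for Ccnb1 (-5.30), Cdc20 (-5.06), Lockd (-4.50), Ccnb2 (-3.44), the unnamed probes A_55_P1973560 (-3.76) and A_55_P1985831 (3.85) and a probe for a long non-coding transcript of chromosome 13 (-3.64), all on the log2 scale as MCD minus chow. Cela1 (3.99), Gbp5 (2.91), Krt25 (3.37), Vmn2r3 (2.54) and Vmn2r5 (5.08) had the higher change with MCD. For Vmn2r5, Krt25, A_55_P1985831 and the transcript of chromosome 13 at least 1 of the 4 groups compared was not well above background on any array, so these fitted differences are no measured sizes. With normexp they came to 1.88, 0.74, 1.55 and -0.83, and none passed the threshold. The call was lost under 20 of 27 other settings for A_55_P1973560, 18 of 26 for Lockd, 19 of 26 for Krt25, 9 of 27 for Vmn2r3 and 4 of 27 for Gbp5. Lockd is a non-coding RNA next to the cyclin-dependent kinase inhibitor gene Cdkn1b.

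On the MCD diet, 375 genes changed differently with the drug than without it (1.78% of those tested), a contrast in which slide and scanner differ and cannot be told apart from the drug. The log2 difference, treated minus untreated, was 5.20 for Cyp3a44, 1.73 for Cyp3a11, 4.19 for Vmn2r5, 2.35 for Vmn2r3, 4.00 for Tinag, 3.11 for Krt25, 2.97 for Col3a1, 2.88 for Nrip2, 2.66 for Abcc4, 2.65 for H2ac6 and 2.60 for H2bc8. It was -2.63 for Jun, -2.57 for Cyp17a1, -1.91 for Ang3, -2.02 for Ang4, -4.50 for Amer3, -4.75 for Tmc5 and -3.73 for 4921507G05Rik. Among unnamed probes it was 4.01 for A_55_P1985831, and for long non-coding transcripts it was -3.69 on chromosome 1, -2.96 on chromosome 13, 4.01 on chromosome 2 and -4.66 on chromosome 9. Of the 375, 48 had at least 1 group not well above background on any array, and 9 of these 48 passed with normexp. Among the genes named here these were Vmn2r5, Krt25, Nrip2, H2ac6, H2bc8, Amer3, 4921507G05Rik and the 4 long non-coding transcripts, whose fitted differences are no measured sizes. With normexp the transcripts came to -0.61 on chromosome 1, -0.64 on chromosome 13, 1.00 on chromosome 2 and -0.83 on chromosome 9, and the one on chromosome 2 alone passed (adjusted p 0.0309 by limma). Tinag came to 1.70, Tmc5 to -1.89 and A_55_P1985831 to 1.82 with normexp, and all of these passed. The call was lost under 20 of 26 other settings for Cyp3a11, 18 of 26 for Ang3, 15 of 26 for Ang4, 10 of 26 for Jun, 12 of 25 for H2bc8, 11 of 25 for Tinag and for Nrip2 and 8 of 25 for H2ac6, against 0 of 25 for Cyp3a44.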

How the results depend on the processing

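Of 69 named genes past the threshold, all kept their direction under every alternative that gave them a value. In all of these alternatives, 21 stayed past the threshold. The filter on all 8 M+Fc-GLP-1 arrays gave a value for only 36 of the 69, so the others were not put through it. Leaving out 1 of the 8 livers ended between 7 (replicate 1 post-PH) and 25 (replicate 2 post-PH) of these 69 calls, with 24 lost without replicate 3 before PH and 22 without replicate 4 post-PH. Fitting only the 8 arrays ended 38, normexp with quantile normalization 19, the 16 treated arrays alone 16, the replicate block 12 and median centring 8. Of 31 list medians beyond 0.25 in size, 4 changed sign under at least 1 setting. Without replicate 4 post-PH, 31 of the 53 medians changed sign or moved by over 1.5 times, the most of any liver left out, against 34 with normexp. Of 48 others, 8 passed it under at least 1 alternative. The count of 343 genes became 628 with normexp and quantile normalization (203 shared), 871 without a filter on dim probes, which tests 34729 genes, and 101 when only the 8 arrays were fitted. It ran from 155 (without replicate 2 post-PH) to 402 (without replicate 2 before PH) when arrays were left out in turn, and was 174 without replicate 3 before PH. Median centring gave 247 genes, of which 70.9% rose, against 50.7% of the 343.

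The 19 diet interactions became 6 with normexp and quantile normalization, 12 with median centring, 7 without a filter and 7 with the filter on all 8 arrays. They became 5 with only the arrays compared, which are the 16 treated ones (5), and 5 to 40 with arrays left out. Leaving out any of these 16 arrays, except M+Fc-GLP-1 replicate 2 before PH and C+Fc-GLP-1 replicates 1 and 4 post-PH, moved this count by over 1.5 times: it was 40 without M+Fc-GLP-1 replicate 4 post-PH, 30 without replicate 3 before PH and 5 without C+Fc-GLP-1 replicate 2 post-PH. The 375 drug interactions on MCD became 199 with median centring, 1633 without a filter and 173 to 550 with arrays left out, moving by over 1.5 times without any MCD replicate before PH, MCD replicates 1 or 2 post-PH, M+Fc-GLP-1 replicates 1 or 3 before PH or replicate 4 post-PH.

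Replicate numbers did not pair the arrays: same-numbered arrays correlated at -0.05, 0.04, -0.01 and 0.07. With the replicate block, 268 genes, 29 diet interactions and 195 drug interactions passed.

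Genes far from the threshold changed sign under single settings: Adgre1 to -0.010 and Ly6g to 0.12 with normexp, and Des to -0.012 with outlier spots kept. With arrays left out in turn, Des ran from -0.10 to 0.18, Fap from -0.056 to 0.74, Gzmb from -0.13 to 0.77 and Tmc5 from -0.94 to 0.16. Dim probes limit the smallest folds, and the cause of these shifts was not tested.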

Other observations

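A few members of 3 further gene families passed the threshold, and these families were noticed after the values were seen. Among core and linker histone genes, 4 of 51 tested rose and none fell, against 0.826% of all genes that rose, with a family median of 0.11. H1f2, a linker histone whose transcript peaks in S phase, measured 2.31, 3.76, 2.52 and 3.03 before PH and 4.47, 4.86, 5.36 and 4.77 post-PH (log2 1.96, SE 0.39, adjusted p 0.00554 by limma). H2ac6 rose at least 2.34-fold and H2bc8 at least 2.16-fold, since neither was well above background before PH. Both calls were lost under 3 of 18 other settings, with the 8 arrays fitted alone and without replicate 2 post-PH for both, with normexp for H2bc8 (adjusted p 0.152 by limma) and without replicate 3 before PH for H2ac6. H3c4 rose by log2 0.76 (adjusted p 0.0337 by limma), a call lost under 11 of 19 other settings. All 4 lie in the histone cluster of chromosome 13.

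Of 4 genes of the angiogenin family of ribonucleases, Ang2 fell by 1.37 in log2 units (adjusted p 0.0236 by limma), Ang3 by 1.54 (adjusted p 0.0235) and Ang4 by 1.66 (adjusted p 0.0176), and Ang had a log2 change of -1.37 (adjusted p 0.0505). For all 4, replicate 4 post-PH was the lowest of the 8 livers, at -0.87 for Ang2 and 3.67 for Ang. Without that liver all 3 calls were lost, and they were lost under 5 of 19 other settings for Ang2, 8 for Ang3 and 6 for Ang4, with adjusted p up to 0.213, 0.148 and 0.353. Their sequences are alike, although the longest run shared by the 60-base probes of Ang2 and Ang4 was 6 bases. Among 328 tested zinc finger genes named Zfp, 11 fell and 1 rose, with a median of -0.25, against 0.802% of all genes that fell and 0.826% that rose. With each array centred on its median, 6 fell and 1 rose, with a median of -0.14.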
